A study of Mus musculus with 24 samples.

Results

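The heat shock protein and DNAJ co-chaperone genes of mouse liver ductal and stromal cells were followed through sorting and culture. They were taken as every symbol of the HSPA, HSPB, HSPD, HSPE and HSPH families and of the DNAJA, DNAJB and DNAJC families that both expression tables list, with pseudogene symbols ending in -ps left out. This gave 69 genes of the 49568 listed, after 12 pseudogene symbols were dropped. By family there were 14 HSP70 and HSP110 genes, 8 small heat shock proteins, 2 chaperonin genes, 4 DNAJA, 13 DNAJB and 28 DNAJC genes. By place or regulation, 9 formed a heat-inducible cytosolic group, 9 an endoplasmic reticulum group and 7 a mitochondrial group, and 44 belonged to none of these.

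HSP70 proteins bind stretches of unfolded protein and release them through cycles of ATP binding and hydrolysis. DNAJ proteins bring clients to HSP70 and start the hydrolysis through their J domain, HSP110 proteins exchange the nucleotide, and small heat shock proteins hold unfolding proteins without using ATP. Heat shock factor HSF1 switches on the cytosolic set when cytosolic proteins unfold, and a separate unfolded protein response switches on the set of the endoplasmic reticulum.

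The 2 experiments were measured by Smart-seq2, a full-length RNA-seq method that does not keep strand. In the transwell experiment, wild-type C57BL/6 mice of 8-12 weeks gave EpCAM+ ductal cells and SCA1+ mesenchymal cells, each negative for CD45, CD11b and CD31, with 2 samples per group. Ductal cells were taken fresh (DC day 0), grown for 15 days in growth-factor rich expansion medium (EM organoid), or grown for 15 days in mesenchymal medium above SCA1+ cells across a membrane that cells cannot cross (Co-cultured organoid). SCA1+ cells were taken fresh (SCA1+Msc day 0), grown alone (SCA1+Msc alone), or grown below ductal cells (SCA1+Msc co-cultured). The cultured SCA1+ cells had first been expanded on the well bottom, so their time in culture was longer than the 15 days of the label, and PDGFRa was not part of their gate. The stromal cells came from 2 littermates and the ductal cells from 2 others, so the p-values of this experiment rest on a spread between few animals. In the homeostasis experiment, 4 fresh populations were sorted from each of 3 littermates of 12 weeks, labelled A and E (male) and F (female), heterozygous for B6.129S4-Pdgfratm11(EGFP)Sor/J, in which nuclear GFP reports Pdgfra. These were DC sorted (EpCAM+), PDGFRa+SCA1-, PDGFRa+SCA1+ and PDGFRa-SCA1+ cells, all gated negative for CD11b, CD45 and CD31. Fresh and cultured groups differed in digestion, time and medium together, and these cannot be told apart. In such bulk libraries, fewer cells of a type and less RNA per cell cannot be told apart either.

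The libraries held an estimated 19.3 to 28.1 M gene-assigned reads in the transwell experiment and 19.6 to 25.7 M in the homeostasis experiment. Ductal markers summed to 36169 to 51709 TPM, the share of transcripts scaled for gene length, in the 6 ductal libraries of the transwell experiment, and 6 mesenchymal markers to 22138 to 41242 TPM in the 6 SCA1+Msc libraries. The fresh SCA1+Msc libraries also held hepatocyte markers (15767 to 20342 TPM), erythroid markers (8678 to 10762 TPM) and ductal markers (1156 and 2417 TPM). In the cultured SCA1+Msc libraries hepatocyte markers were at no more than 369 TPM, with 1 to 3 of 5 listed at 0, and erythroid markers at 0.920 to 1.81 TPM. The fresh ductal libraries held 4133 to 5220 TPM of hepatocyte and 5206 to 5314 TPM of erythroid markers. The PDGFRa-SCA1+ fraction, labelled mesenchymal, carried 244 to 465 of summed mesenchymal markers against 25450 to 48302 in the PDGFRa+ fractions, and 1641 to 1758 of endothelial markers against at most 14.8 in the other fractions. It is called here by its gate.

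Promoters were searched, within 250 bases before and 50 after the RefSeq start (GRCm38.p6), for the motifs through which these responses are known to act. Only exact matches were taken, so a member without a match is not shown to lack the element. Of 69 members 57 had a promoter in the RefSeq table, and Hspa8 and Hspa9 were among those without. The heat shock element was searched as 3 units, GAA-NN-TTC-NN-GAA or TTC-NN-GAA-NN-TTC, each order being the other's reverse complement, and the endoplasmic reticulum stress element as CCAAT-N9-CCACG on both strands; the motifs share no unit. The heat shock element was found in 4 members (7.02% of 57: Hspd1, Hspe1, Hsph1 and Dnajb6, the last named only for its promoter) and in 0.662% of all 27025 symbols with a promoter. It was found in 1 of the 8 heat-inducible members with a promoter (Hsph1, where it lies after the start) and in 2 of the 5 mitochondrial ones. The stress element was found in 2 members (3.51%), Hspa5 and Dnajc3, and in 0.137% of all symbols. The sequences below are the 150 bases before the start of the clearest examples, with the motif in capitals. Hspa5, the endoplasmic reticulum HSP70 known as BiP, carries its stress element 65 bases before the start, at chr2:34771940-34772089, plus strand. Dnajc3, an endoplasmic reticulum co-chaperone, carries its own 105 bases before the start, at chr14:118937782-118937931, plus strand. Hspe1, the small ring of the mitochondrial chaperonin, carries 2 overlapping heat shock elements at chr1:55087998-55088147, plus strand, and Hspd1 starts on the opposite strand from the same stretch.
Hspa5: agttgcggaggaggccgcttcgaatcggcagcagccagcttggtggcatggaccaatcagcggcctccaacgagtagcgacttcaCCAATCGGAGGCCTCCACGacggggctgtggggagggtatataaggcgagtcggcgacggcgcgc
Dnajc3: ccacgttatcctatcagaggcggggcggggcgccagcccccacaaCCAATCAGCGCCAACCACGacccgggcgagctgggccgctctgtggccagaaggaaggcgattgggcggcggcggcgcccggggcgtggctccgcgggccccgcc
Hspe1: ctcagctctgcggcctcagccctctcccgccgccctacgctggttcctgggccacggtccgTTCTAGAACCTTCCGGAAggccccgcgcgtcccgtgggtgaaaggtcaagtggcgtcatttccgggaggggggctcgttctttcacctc

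The inducible cytosolic HSP70 is encoded by a pair of neighbouring copies, Hspa1a and Hspa1b, whose promoters differed at 4 of 300 bases and held no match to these exact motifs. The first 60 bases of each window are shown to make the likeness visible, at chr17:34972347-34972406 for Hspa1a and chr17:34959429-34959488 for Hspa1b, both on the minus strand and read 5′ to 3′, with the bases that differ in capitals.
Hspa1a: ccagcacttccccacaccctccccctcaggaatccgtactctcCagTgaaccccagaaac
Hspa1b: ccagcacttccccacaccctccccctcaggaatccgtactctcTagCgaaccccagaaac
The likeness continues in the transcripts. Of the 50-base words of Hspa1a transcripts 66.3% also occur in another annotated gene, and of those of Hspa1b 62.3%. Reads of low mapping quality had been removed, so the split between these copies and their absolute levels are uncertain. The same applies to Hspb1 (50.1% of words shared, mostly with a pseudogene), Hspd1 (42.1%), Hspa8 (39.4%), Hspb2 (24.4%, with its neighbour Cryab), Hspe1 (22.8%) and Dnaja1 (20.6%). In all, 13 members shared at least 20% of their words and 28 shared none.

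Of 69 members 63 passed the filter of 1 TPM in at least 2 samples. In EM organoids against fresh ductal cells 19 were higher and 15 lower, where 27.1% of all genes tested were higher and 17.2% lower. The members' shares were 30.2% and 23.8%, and their median log2 difference was 0.04 against 0.12 over all genes. Under quantile normalization the split was 13 higher and 18 lower. In co-cultured organoids against fresh ductal cells 15 were higher and 18 lower, or 23.8% and 28.6%, against 23.2% and 19.1% of all genes, with a median of 0.07 against 0, and 12 and 20 under quantile normalization. In stroma alone against fresh stroma 20 were higher and 18 lower, or 31.7% and 28.6%, against 27.4% and 17.5%. In co-cultured stroma they were 18 and 15, or 28.6% and 23.8%, against 26% and 17.3%. The stromal medians were 0.19 and 0.21 against 0.19 and 0.17 over all genes. The summed level of all 69 members went from 6138 and 6373 TPM in fresh ductal cells to 3785 to 3833 TPM in organoids, and from 6931 and 7869.6 TPM in fresh stroma to 4446 to 4906 TPM in culture. Hspa5 was the largest single part of that sum in the fresh cells of both origins.

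In SCA1+ stroma the heat-inducible cytosolic group was higher in fresh than in cultured cells. The largest fall was that of Hspa1a, the stress-inducible HSP70. It stood at 688 and 798 TPM in the fresh samples, at 2.72 and 3.34 TPM in cells grown alone and at 6.49 and 7.10 TPM in co-cultured cells. Every fresh sample lay above every cultured one, with log2 differences of -7.53 ± 0.17 (SE, adjusted p = 4.66e-09) alone and -6.57 ± 0.17 (adjusted p = 1.28e-08) in co-culture, on the log2(TPM + 1) scale used throughout. Its copy Hspa1b stood at 52.7 and 62.6 TPM fresh, 0.279 and 0.242 TPM alone and 0.789 and 0.544 TPM co-cultured, the last 4 values resting on 5 to 14 reads each. Hsph1, the HSP110 that exchanges nucleotide on HSP70, fell from 136 and 194 TPM to 15.03 and 17.7 TPM alone and 18.00 and 15.1 TPM co-cultured (log2 difference -3.23 ± 0.21, adjusted p = 3.39e-06).

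Dnajb1, the main cytosolic HSP40 partner of HSP70, fell from 417 and 503 TPM to 49.6 and 64.04 TPM alone and 41.9 and 37.01 TPM co-cultured. The difference was -3.00 ± 0.18 (adjusted p = 2.11e-06) alone and -3.51 ± 0.18 (adjusted p = 8.51e-07) in co-culture. Dnajb4, a related cytosolic HSP40, fell from 64.2 and 64.9 TPM to 14.6 and 15.5 TPM alone and 11.7 and 20.7 TPM co-cultured. Fresh and cultured samples again did not overlap for either gene. Hspb1, the small heat shock protein HSP27, fell less, from 567 and 794 TPM to 269.6 and 243 TPM alone and 251 and 277 TPM co-cultured. Dnaja1 went from 42.9 and 41.6 to between 16.6 and 21.8 TPM over the 4 cultured samples, and Hspa8, the mostly constitutive cytosolic HSP70, from 359 and 394 to between 142 and 156 TPM. Hspa4l, an HSP110 relative, was the 1 member of the group that did not pass the test, at 6.50 and 4.46 TPM fresh and 3.70 to 7.44 TPM cultured. Over all 18136 genes tested 17.5% were lower and 27.4% higher in stroma alone, and 17.3% and 26% in co-cultured stroma. The median log2 difference of the 9 heat-inducible members was -2.03 alone and -1.98 in co-culture, against 0.19 and 0.17 over all genes. Of these 9 members 8 were lower in both cultured stromal groups and 0 were higher. The count was 8 under every alternative setting tried and without each sample in turn. Summed, the group went from 2333 and 2857 TPM in fresh stroma to 500.3 to 528 TPM in culture.

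**Figure D1:**
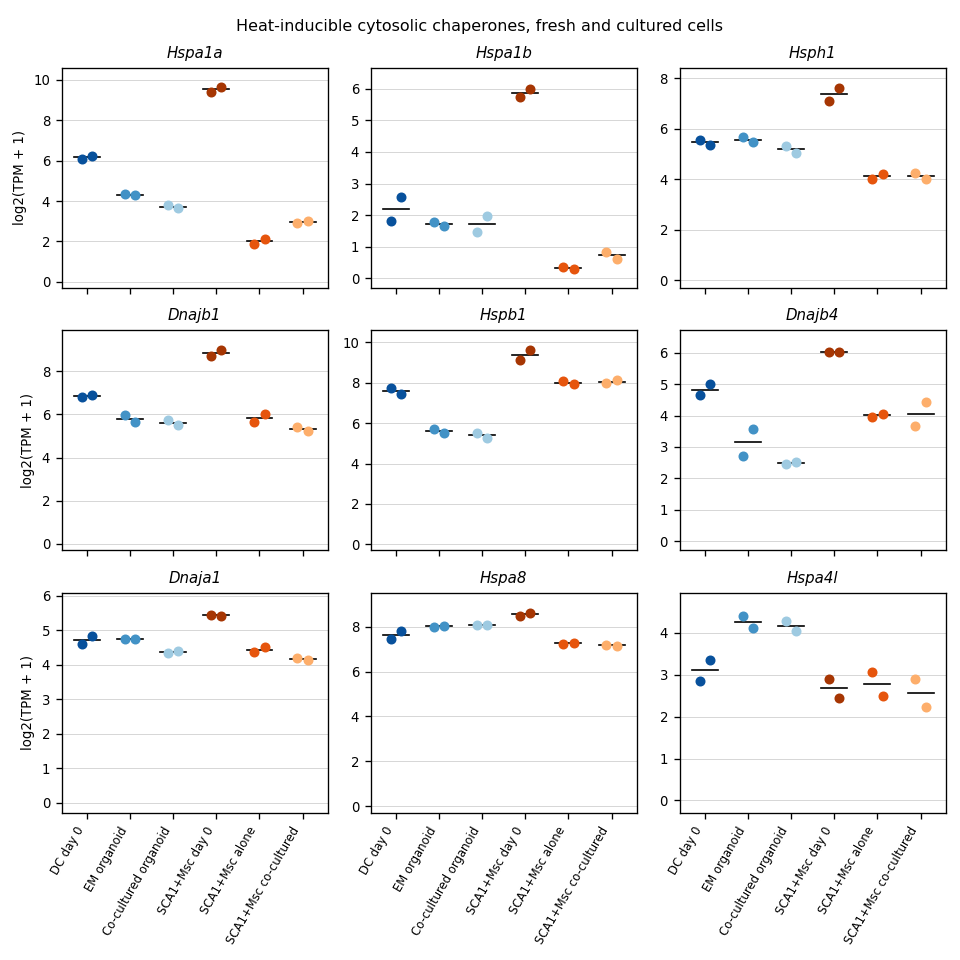
Level of each of the 9 heat-inducible cytosolic members as log2(TPM + 1) in the 12 transwell samples, with 1 point per sample, a bar at the mean of the 2 samples of a group, and a separate vertical scale per gene. The fresh SCA1+Msc samples are the highest of all groups for 8 of the 9 genes, the exception being Hspa4l, and cultured stroma holds the lowest Hspa1a and Hspa1b.

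In ductal cells 4 of the 9 members fell in culture, from a summed level of 670 and 698 TPM in fresh cells. Hspa1a was at 67.2 and 74.2 TPM in fresh ductal cells, 19.2 and 18.5 TPM in EM organoids and 13.00 and 11.5 TPM in co-cultured organoids. The differences from fresh cells were -1.85 ± 0.17 (adjusted p = 2.09e-05) and -2.44 ± 0.17 (adjusted p = 4.36e-06). Dnajb1 was at 112 and 116 TPM fresh, 60.7 and 48.2 TPM in EM and 52.99 and 43.8 TPM in co-culture. Hspb1 was at 212 and 173 TPM fresh, 50.6 and 44.8 TPM in EM and 44.1 and 38.1 TPM in co-culture, and Dnajb4 at 24.00 and 31.02, 5.57 and 10.9 and 4.54 and 4.78 TPM. These 4 genes fell in both kinds of organoid, with no overlap between fresh and cultured samples, though Dnajb4 in EM did not pass in a fit of only the groups compared (adjusted p = 0.0575).

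Hsph1, by contrast, was at 46.2 and 39.8 TPM in fresh ductal cells, 49.3 and 43.6 TPM in EM organoids and 38.7 and 32.3 TPM in co-cultured organoids, and did not pass the test in either (adjusted p = 0.72 and 0.336). Dnaja1 and Hspa1b did not pass either, and Hspa1b was low in every ductal sample, between 1.79 and 5.02 TPM. The remaining members rose. Hspa4l went from 6.27 and 9.28 TPM fresh to 20.3 and 16.3 TPM in EM and 18.6 and 15.5 TPM in co-culture (log2 differences 1.15 ± 0.34 and 1.06 ± 0.34). Hspa8 went from 177 and 221 TPM fresh to between 256 and 270.3 TPM over the 4 organoid samples, a rise of 0.39 ± 0.11 in EM and 0.45 ± 0.11 in co-culture. Neither rise passed under quantile normalization or in a fit of only the groups compared, with adjusted p between 0.0562 and 0.210. Of the 9 members 4 were lower and 2 higher in each kind of organoid. Over all genes 17.2% were lower and 27.1% higher in EM organoids, and 19.1% and 23.2% in co-cultured organoids. The median of the 9 members was -0.47 in both kinds, against 0.12 and 0 over all genes, and their summed level reached 439 to 490 TPM. Without DC day 0 replicate 1 no member was higher in either kind, and leaving out 1 organoid sample left 0 or 1 higher.

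The 10 immediate early genes of a fixed list (such as Fos and Jun, transcribed within minutes of a stimulus) moved the same way. In each comparison of cultured with fresh cells, where 17.2% to 19.1% of all genes were lower, 10 of these 10 were. Their sum was 32374 and 33005 TPM in fresh stroma and 923 to 1373 TPM in cultured stroma, and 19621 and 20968 TPM in fresh ductal cells and 1687 to 2744 TPM in organoids. Hepatocyte and erythroid markers, given above, were also higher in the fresh samples. Their part in the fall of the heat-inducible genes was not tested.

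Among the endoplasmic reticulum members Hspa5 and Dnajb9 fell and Dnajc10 rose in all 4 comparisons of cultured with fresh cells. No other member of the group passed in the same direction in all 4. Hspa5 (BiP) was among the 4 members above 100 TPM in every transwell sample. It stood at 2278 and 2434 TPM in fresh ductal cells, 657 and 713 TPM in EM organoids and 637 and 689 TPM in co-cultured organoids (log2 differences -1.78 ± 0.08 and -1.83 ± 0.08, adjusted p = 4.09e-07 and 3.89e-07). In stroma it stood at 2154 and 2341 TPM fresh, 834 and 815 TPM alone and 794 and 838 TPM co-cultured (log2 differences -1.44 ± 0.08 and -1.46 ± 0.08). The 4 fresh samples lay within 2154 to 2434 TPM and the 8 cultured ones within 637 to 838 TPM, whichever the cell type, with no overlap between fresh and cultured.

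Dnajb9, the co-chaperone ERdj4 that partners BiP, was at 250.03 and 296 TPM in fresh ductal cells against 58.5 to 69.0 TPM in organoids, and at 285 and 265 TPM in fresh stroma against 74.4 to 104 TPM in cultured stroma. All 4 comparisons passed, with log2 differences of -2.08, -2.02, -1.72 and -1.63 (SE 0.17 each). Dnajc10 (ERdj5), which reduces disulfide bonds, went the other way. It rose from 49.2 and 37.5 TPM in fresh ductal cells to 116 and 111 TPM in EM and 96.5 and 115 TPM in co-culture, and from 40.8 and 62.97 TPM in fresh stroma to 179 and 177 TPM alone and 145 and 151 TPM co-cultured. Dnajb11 (ERdj3), a secreted partner of BiP, rose in stroma, from 75.7 and 80.6 TPM to between 121 and 137 TPM, and in co-cultured organoids, from 71.7 and 81.6 to 111 and 111 TPM, and in EM organoids stood at 93.3 and 87.00 TPM (adjusted p = 0.134).

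Dnajc3, which carries a stress element as Hspa5 does, stood at 165 and 133 TPM in fresh stroma and 143 to 181 TPM in cultured stroma, where neither comparison passed (adjusted p = 0.35 and 0.872). In ductal cells it went from 48.00 and 59.2 to 71.4 and 78.4 TPM in EM (log2 difference 0.48 ± 0.15, adjusted p = 0.0299, 0.321 under quantile normalization and 0.0839 with only the groups compared) and to 61.9 and 65.99 TPM in co-culture. Dnajc1 (ERdj1), which binds ribosomes at the endoplasmic reticulum membrane, differed between the cell types. It fell from 27.4 and 29.4 TPM in fresh ductal cells to 17.04 and 15.5 TPM in EM and 9.78 and 10.5 TPM in co-culture, and in stroma stood at 12.9 and 19.4 TPM fresh and 22.3 to 26.0 TPM cultured, where 1 comparison passed (alone, 0.59 ± 0.21, adjusted p = 0.0439) and did so neither with a replicate block, nor under quantile normalization, nor on the RPKM scale, nor with only the groups compared. Of the 9 members, 3 were higher and 3 lower in EM organoids, 3 and 4 in co-cultured organoids, 4 and 2 in stroma alone and 3 and 2 in co-cultured stroma. Over all genes the shares higher and lower were 27.1% and 17.2%, 23.2% and 19.1%, 27.4% and 17.5%, and 26% and 17.3% in that order. The median log2 differences of the members were 0.07, 0.07, 0.59 and 0.50, against 0.12, 0, 0.19 and 0.17 over all genes.

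**Figure D2:**
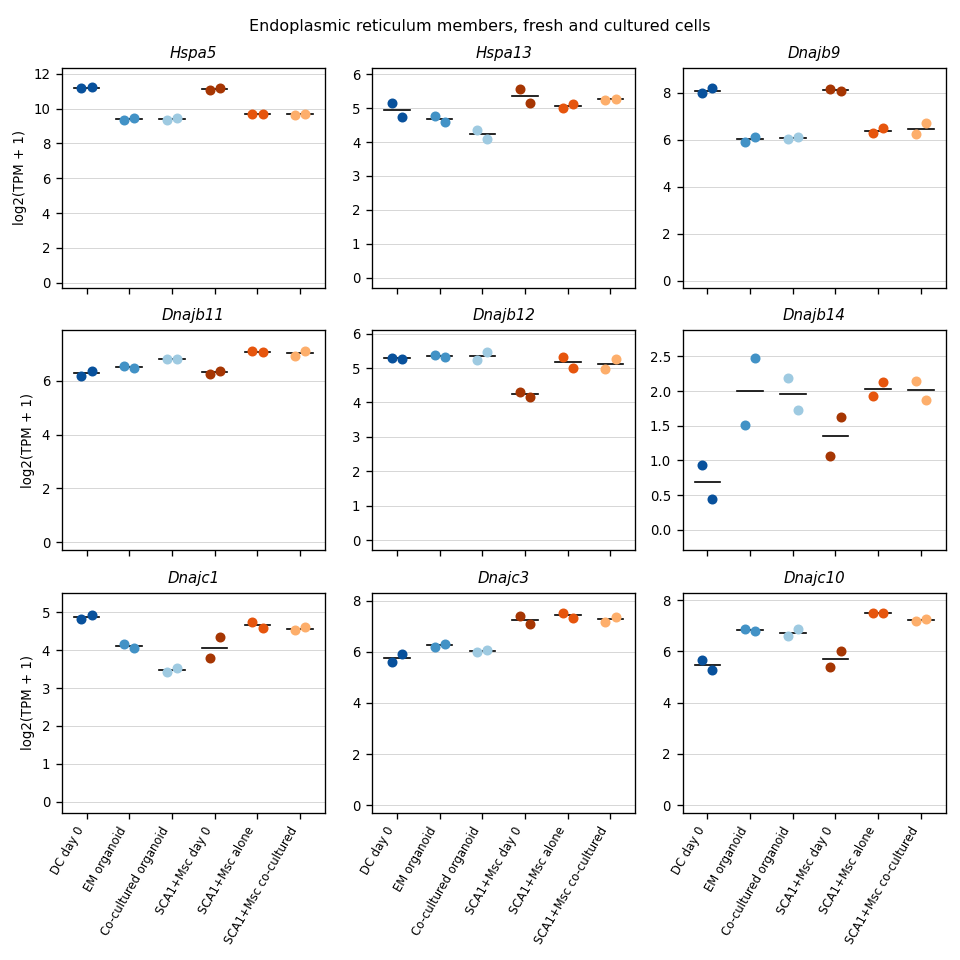
Level of each of the 9 endoplasmic reticulum members as log2(TPM + 1) in the 12 transwell samples, with 1 point per sample, a bar at the mean of each group, and a separate vertical scale per gene. Hspa5 and Dnajb9 are lower in all 4 cultured groups than in the fresh cells of the same origin, while Dnajc10 is higher in all 4.

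Among mitochondrial members, Hspa9 (mortalin), the HSP70 of the matrix and its protein import, was at 669.6 and 675 TPM in fresh ductal cells, 289 and 289 TPM in EM organoids and 395 and 346 TPM in co-cultured organoids. Both falls passed, with log2 differences of -1.21 ± 0.10 and -0.86 ± 0.10. In stroma it was at 266 and 275 TPM fresh, 216 and 203 TPM alone and 243 and 209.96 TPM co-cultured, with a difference that passed alone (-0.37 ± 0.10, adjusted p = 0.0135) and not in co-culture (-0.26, adjusted p = 0.0607). The chaperonin pair, which folds proteins in a closed chamber in the matrix, fell in stroma only among the tests that passed. Hspd1 went from 99.4 and 103 TPM to between 50.3 and 69.2 TPM, and Hspe1 from 97.01 and 105 TPM to between 50.8 and 66.6 TPM. In ductal cells Hspd1 lay between 91.6 and 126 TPM and Hspe1 between 79.7 and 93.6 TPM over all 6 samples, with no test passed. Their shared promoter is the one printed above with 2 heat shock elements.

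Dnajc15, a co-chaperone of the inner membrane import motor, rose in all 4 comparisons. It went from 132 and 120.1 TPM in fresh ductal cells to between 289 and 339 TPM in organoids and from 49.9 and 63.6 TPM in fresh stroma to between 124 and 129.9 TPM in culture, with log2 differences from 1.15 to 1.40. Dnaja3 (Tid1), a matrix partner of mortalin, rose from 27.6 and 29.99 to 87.4 and 68.04 TPM in EM, to 59.2 and 53.98 TPM in co-culture, and from 24.9 and 19.7 to 58.8 and 43.6 TPM in stroma alone. In co-cultured stroma it stood at 48.6 and 27.3 TPM (adjusted p = 0.0642). The calls in stroma alone of Dnaja3 (0.0584), Hspd1 (0.0712) and Hspe1 (0.0687) were lost when the fit held only these groups. Of the 7 mitochondrial members 3 were higher and 1 lower in each kind of organoid, 4 and 3 in stroma alone and 2 and 2 in co-cultured stroma. Over all genes 27.1% were higher and 17.2% lower in EM organoids, and 23.2% and 19.1% in co-cultured organoids. In stroma the shares of all genes were 27.4% and 17.5% alone and 26% and 17.3% in co-culture.

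Outside the heat-inducible group the largest changes were those of the small heat shock proteins Hspb8 in ductal cells and Hspb7 in stroma. Hspb8, which works with BAG3 in the clearance of misfolded protein by autophagy, was at 225 and 206 TPM in fresh ductal cells. It fell to 9.70 and 19.9 TPM in EM organoids and 8.02 and 10.5 TPM in co-cultured organoids (log2 differences -3.85 ± 0.29 and -4.41 ± 0.29, adjusted p = 7.54e-06 and 3.79e-06). In stroma it stood at 279 and 421 TPM fresh and 211 to 231 TPM cultured, and neither comparison passed (adjusted p = 0.138 and 0.0901).

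Hspb7, a small heat shock protein known from heart and other muscle, was listed at 0 in 5 of 6 ductal samples and at 0.575 TPM in the other. In stroma it rose from 23.2 and 28.01 TPM to 694 and 451 TPM alone and 731 and 566 TPM co-cultured (log2 differences 4.40 ± 0.29 and 4.60 ± 0.29, adjusted p = 3.69e-06 and 3.1e-06). On the TPM scale, which allows for gene length, each cultured stromal sample held more Hspb7 than any other of the 8 small heat shock proteins counted here; Cryab, a small heat shock protein whose symbol the families above leave out, was higher still in 3 of the 4. Hspb6 (HSP20), abundant in muscle, rose from 20.1 and 24.8 TPM to 125 and 90.3 TPM alone and 102 and 98.99 TPM co-cultured. It also rose in ductal cells, from 6.82 and 6.88 TPM to 24.9 and 20.4 TPM in EM and 17.4 and 20.02 TPM in co-culture.

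Hspb2, a partner of the myotonic dystrophy kinase, rose from 20.5 and 39.00 TPM in fresh stroma to between 159 and 188 TPM in culture, and from 6.83 and 2.87 TPM in fresh ductal cells to 19.3 and 13.04 TPM in co-cultured organoids. Its neighbour Cryab, with which it shares sequence, also stood higher in cultured stroma, at 639 to 738 TPM against 328 and 440 TPM fresh, so the 2 genes are not independent readings. Hspb11 (IFT25), a subunit of the intraflagellar transport complex of cilia despite its name, rose in all 4 comparisons, by 0.92 to 1.47. With only the groups compared its organoid calls (0.0534 in EM and 0.139 in co-culture) and that of Hspb2 in co-cultured organoids (0.0957) were lost. Of the 8 small heat shock proteins 6 were tested, since Hspb3 was listed at 0 in every transwell sample and Hspb9 reached 3.41 TPM in 1 sample only.

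**Figure D3:**
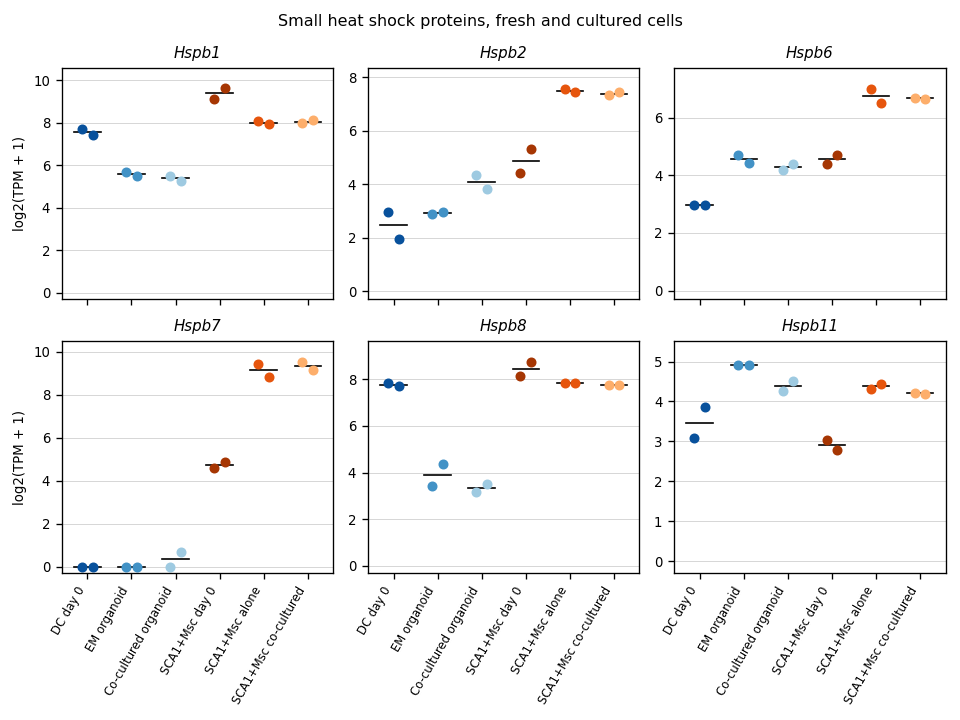
Level of the 6 small heat shock proteins tested in the transwell experiment as log2(TPM + 1), with 1 point per sample, a bar at the mean of each group, and a separate vertical scale per gene. Hspb8 is low in the 4 organoid samples alone, whereas Hspb2, Hspb6 and Hspb7 are highest in the 4 cultured stromal samples.

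DNAJC proteins share only the J domain and act in many pathways. Of 26 tested, 12 rose and 4 fell in EM organoids, 7 and 5 in co-cultured organoids, 11 and 1 in stroma alone and 10 and 1 in co-cultured stroma. These are 46.2% and 15.4%, 26.9% and 19.2%, 42.3% and 3.85%, and 38.5% and 3.85%, beside the shares of all genes given above, which also rose more often than they fell. In a fit of only the groups compared 4 rose in each stromal comparison, and without SCA1+Msc alone replicate 1 or either co-cultured stromal sample 6 did. Leaving out 1 sample left 1 to 3 lower in EM and 2 to 4 in co-cultured organoids. The median log2 differences were 0.44, 0.40, 0.68 and 0.65. Dnajc9, a co-chaperone of newly made histones, rose from 20.4 and 17.05 TPM to 66.2 and 60.7 TPM in EM and 51.05 and 52.2 TPM in co-culture, and from 15.2 and 10.6 TPM to 49.9 and 31.2 TPM alone and 33.6 and 28.2 TPM co-cultured in stroma. The stromal rises of Dnajc9 did not pass in a fit of only the groups compared (0.0705 and 0.0601). Dnajc16 rose from 3.82 and 3.54 TPM to between 12.3 and 17.1 TPM in organoids and from 0.349 and 1.10 TPM to between 7.93 and 12.8 TPM in cultured stroma. Dnajc4 rose from 7.25 and 10.9 to between 35.0 and 48.9 TPM in organoids, while in fresh stroma its samples stood apart at 13.8 and 41.6 TPM and no test passed.

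Dnajc5, the cysteine string protein of secretory vesicles, fell in ductal cells, from 148 and 179 TPM to between 86.9 and 112 TPM (in co-culture adjusted p = 0.00833, 0.0581 with only the groups compared), and in stroma lay between 53.8 and 67.6 TPM in all 6 samples. Dnajc22, a membrane-spanning member, was a ductal transcript: it stood at 28.3 and 39.7 TPM in fresh ductal cells, 42.7 and 39.5 TPM in EM and 85.8 and 91.6 TPM in co-cultured organoids. In stroma it was at 10.98 and 5.86 TPM in the fresh samples and was listed at 0 in all 4 cultured ones, against a floor of at most 0.270 TPM for 3 reads. The fresh stromal samples also held ductal markers (1156 and 2417 TPM) and hepatocyte markers (15767 to 20342 TPM). The part of ductal cells or hepatocytes in these values was not tested.

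The other HSP70 relatives went separate ways. Hspa4, an HSP110 member also called APG-2, fell in organoids, from 215 and 213 TPM to 114 and 94.4 TPM in EM and 166 and 161 TPM in co-culture, and rose in stroma, from 68.96 and 72.3 TPM to 138 and 121 TPM alone and 116 and 113 TPM co-cultured. The fall in co-cultured organoids (-0.38 ± 0.12, adjusted p = 0.0257) did not pass on the RPKM scale (0.0742). Hspa2, an HSP70 most abundant in testis, fell in stroma from 117 and 148 TPM to between 19.7 and 34.7 TPM and in co-cultured organoids from 102 and 113 to 51.4 and 48.3 TPM, with EM organoids between them at 80.8 and 77.1 TPM. Hspa14, a ribosome-associated HSP70, rose from 12.3 and 15.3 to 31.6 and 31.9 TPM in EM and from 4.66 and 11.3 TPM to between 20.3 and 29.9 TPM in cultured stroma. The EM call was lost under quantile normalization (adjusted p = 0.102) and the stromal calls in a fit of only the groups compared (0.0906 and 0.138).

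The growth-factor medium and the co-culture were then compared within each cell type. Co-cultured organoids differed from EM organoids in 6 members, 3 higher and 3 lower, against 5.73% and 7.21% of all genes, with a median of -0.11 against -0.13, and 4 higher and 2 lower on the RPKM scale. Dnajc22 was higher in co-culture (85.8 and 91.6 against 42.7 and 39.5 TPM, adjusted p = 0.0384), as were Hspa4 (166 and 161 against 114 and 94.4 TPM, adjusted p = 0.00609) and Hspa9 (395 and 346 against 289 and 289 TPM, adjusted p = 0.0471). Lower in co-culture were Dnajc18 (8.74 and 6.90 against 26.6 and 21.9 TPM, adjusted p = 0.00436), Dnajb13, a component of cilia and sperm tails (1.27 and 0.340 against 10.5 and 6.42 TPM, adjusted p = 0.00851), and Hspa1a (13.00 and 11.5 against 19.2 and 18.5 TPM, adjusted p = 0.048). Each of the 6 calls was lost under at least 1 other setting, 5 of them (all but Dnajc22) in a fit of only the groups compared, and leaving out any 1 of the 4 organoid samples gave 2 or 3 calls in place of 6. Stroma grown below ductal cells differed from stroma grown alone in 0 of 63 members by limma, with 3 at an unadjusted p under 0.05, against 0.0937% of all genes higher and 0.0331% lower. The nearest was Hspa1a, at 6.49 and 7.10 TPM co-cultured and 2.72 and 3.34 TPM alone (0.95 ± 0.17, adjusted p = 0.0967).

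Whether ductal and stromal cells changed alike from fresh to co-cultured was tested as the difference between their changes, co-cultured minus fresh. That change takes in digestion, time and medium along with co-culture, and these cannot be told apart. Of 63 members 10 differed with a positive sign (the ductal change above the stromal one) and 10 with a negative sign, against 13.8% and 14.5% of all genes. The median was -0.25, against -0.14 over all genes. On the RPKM scale 11 were positive and 5 negative, and without SCA1+Msc co-cultured replicate 2 the calls numbered 13. In the heat-inducible group 6 of 9 members were positive and 1 negative, with a median of 1.82. Hspa1a fell by 2.44 in ductal and by 6.57 in stromal cells, a difference of 4.14 ± 0.23 (adjusted p = 6.14e-06). The difference was 4.67 ± 0.48 for Hspa1b, 2.96 ± 0.29 for Hsph1, 2.28 ± 0.25 for Dnajb1, 1.82 ± 0.16 for Hspa8 and 0.92 ± 0.22 for Dnaja1. Hspb1, the 1 negative member, fell more in ductal cells (-0.85 ± 0.25, adjusted p = 0.0283, 0.0641 on the RPKM scale), and Dnajb4 did not differ past the threshold (-0.34, adjusted p = 0.622). Hspb8 (-3.73 ± 0.41) and Dnajc1 (-1.90 ± 0.30) had the largest negative differences among members detected in both cell types.

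The 2 comparisons share no samples, and their calls are set side by side here. Both come from a fit in which all groups share the estimate of a gene's spread, so the calls are not independent. Of the 18 members lower in co-cultured organoids and the 15 lower in co-cultured stroma, 8 were lower in both (44.4% and 53.3%, against 43.1% and 47.7% over all genes called lower), namely Dnajb1, Dnajb13, Dnajb4, Dnajb9, Hspa1a, Hspa2, Hspa5 and Hspb1. Of the 15 and 18 higher, 9 were higher in both (60% and 50%, against 54% and 48.1%). Hspa4 was lower in organoids and higher in stroma, and Dnajc22 and Hspa8 the reverse. For EM organoids and stroma alone, 8 members were lower in both (53.3% of 15 and 44.4% of 18, against 47.6% and 47% over all genes) and 13 higher in both (68.4% of 19 and 65% of 20, against 56.4% and 55.9%).

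**Figure D4:**
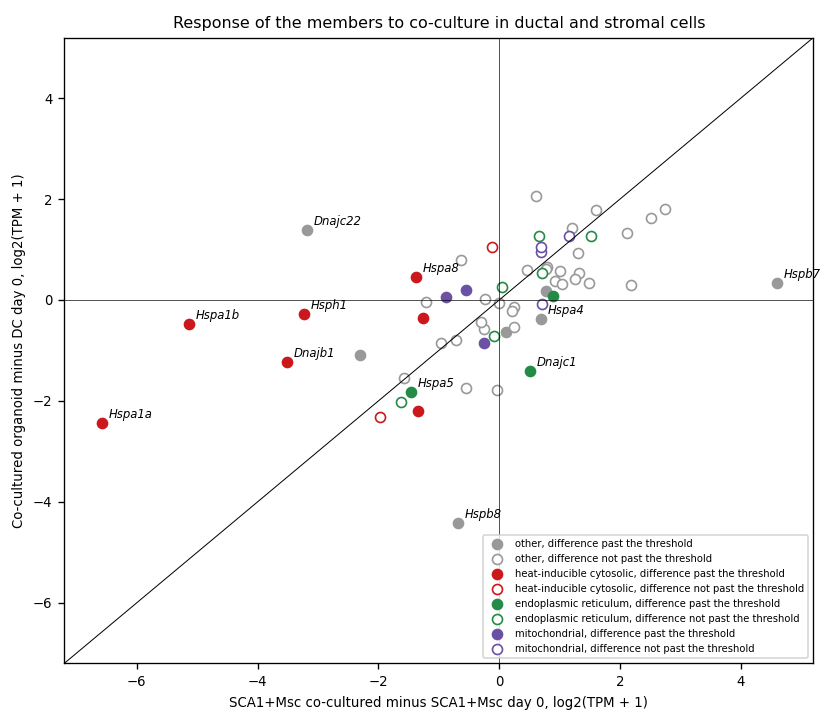
Change of each of the 63 members tested in co-cultured against fresh stroma (horizontal) and in co-cultured organoids against fresh ductal cells (vertical), both as differences of mean log2(TPM + 1), with a diagonal where the changes are equal. Filled points are the 20 members whose difference between cell types passed the threshold, and the heat-inducible members Hspa1a, Hspa1b, Hsph1 and Dnajb1 lie far to the left of the diagonal.

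In the 4 fresh fractions of the homeostasis experiment 2 to 5 of the 9 heat-inducible members, or 5 to 7 with the reuse of column totals described next undone, were higher in each stromal fraction than in ductal cells, and Hspa1a and Hsph1 were higher in all 3. The values of this table are not exact TPM, but lie between 0.722 and 1.39 times it, because column totals had been reused down its rows. Of 69 members 63 passed the filter of 1 in at least 3 samples. Against DC sorted, PDGFRa+SCA1- had 9 members higher and 11 lower, against 9.98% and 18.9% of all genes, with a median of -0.35 against -0.47. The split was 15 and 8 under quantile normalization and 13 and 9 with the reuse undone, and without DC sorted of mouse E the calls numbered 13. PDGFRa+SCA1+ had 4 higher and 9 lower, against 9.85% and 14%, with a median of -0.31 against -0.28, and 10 and 6 under quantile normalization or 8 and 8 with the reuse undone. PDGFRa-SCA1+ had 9 higher and 6 lower, against 11.5% and 11.3%, with a median of -0.04 in both. That split was 9 and 9 under quantile normalization and 12 and 5 with the reuse undone.

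Hspa1a stood at 247, 275 and 138 in DC sorted of mice A, E and F, at 1335, 1524 and 751 in PDGFRa+SCA1-, at 598, 681 and 618 in PDGFRa+SCA1+ and at 1329, 1637 and 1279.6 in PDGFRa-SCA1+. Every stromal sample lay above every ductal one, with log2 differences from DC sorted of 2.44 ± 0.30 (adjusted p = 6.9e-05), 1.58 ± 0.30 (adjusted p = 0.00201) and 2.73 ± 0.30 (adjusted p = 3.22e-05). Mouse F had the lowest level in DC sorted, in PDGFRa+SCA1- and, by less, in PDGFRa-SCA1+, though not in PDGFRa+SCA1+. As the only female, its values cannot be told apart from an effect of sex.

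The copy Hspa1b followed the same order of means, at 10.7, 14.9 and 9.22 in DC sorted, 40.9, 93.9 and 26.1 in PDGFRa+SCA1-, 26.1, 25.7 and 22.5 in PDGFRa+SCA1+ and 80.5, 76.2 and 63.7 in PDGFRa-SCA1+. Hsph1 was at 59.7, 50.5 and 51.5 in DC sorted and at 146, 157 and 121, 87.4, 93.4 and 94.7 and 122, 107 and 134 in the stromal fractions in that order, and passed in all 3 against DC sorted. Its 9 stromal samples all lay above its 3 ductal ones. Dnajb1 had a different order. It was highest in PDGFRa+SCA1- of mice A and E, at 1217, 1028 and 376, against 249.9, 256 and 173 in DC sorted (log2 difference 1.80 ± 0.38, adjusted p = 0.00344). It stood at 533, 407 and 501 in PDGFRa+SCA1+ (adjusted p = 0.0536, 0.0118 with the reuse of totals undone) and at 286, 397 and 419 in PDGFRa-SCA1+ (adjusted p = 0.223).

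Hspb1 was set apart in PDGFRa-SCA1+, at 1009.7, 912 and 822, against 297, 172 and 139 in DC sorted and 226, 225 and 141 in PDGFRa+SCA1+ (log2 differences 2.24 ± 0.40 and 2.23 ± 0.40, adjusted p = 0.00122 and 0.00168). In PDGFRa+SCA1- it stood at 533, 461 and 182, a difference from DC sorted that passed with the mouse as a block (adjusted p = 0.0344) and not without it (0.117). Hspa8 passed in PDGFRa-SCA1+ alone, at 107, 133 and 123 against 59.98, 64.7 and 45.4 in DC sorted, though with the reuse undone it also passed in PDGFRa+SCA1- (0.00431) and PDGFRa+SCA1+ (0.0101). Over all genes 9.98%, 9.85% and 11.5% were higher in PDGFRa+SCA1-, PDGFRa+SCA1+ and PDGFRa-SCA1+ than in DC sorted. Of the 9 heat-inducible members, 4, 2 and 5 were higher in the same order, and 0 were lower. With the reuse undone the counts were 7, 5 and 6 and under quantile normalization 7, 7 and 5, with 0 lower in either. The shares of all genes given here belong to the main setting, so counts under other settings have no such share beside them. The calls gained with the reuse undone were those of Hspa8, Dnaja1 (0.0146) and Dnajb4 (0.00928) in PDGFRa+SCA1-, of Hspa8, Dnajb1 and Hspa1b (0.0330) in PDGFRa+SCA1+ and of Dnaja1 (0.0167) in PDGFRa-SCA1+. Without PDGFRa+SCA1- of mouse F the count in that fraction was 6, and without any 1 of the E and F samples of DC sorted or PDGFRa+SCA1+ it was 1 in PDGFRa+SCA1+. Immediate early genes summed to 27512 to 35948 in DC sorted and to 32368 to 40879 in the 9 stromal samples, so they were high in all 4 fractions. Erythroid markers were higher in PDGFRa-SCA1+ (3790 to 8516) than in DC sorted (546 to 1833). They lay at 1167 to 5312 in PDGFRa+SCA1- and 786 to 2718 in PDGFRa+SCA1+. Hepatocyte markers were at 5782 to 6909 in DC sorted, 420 to 959 in PDGFRa+SCA1-, 207 to 1627 in PDGFRa+SCA1+ and 1969 to 6295 in PDGFRa-SCA1+. The part of erythroid cells and hepatocytes in the differences between fractions, here and below, was not tested.

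The PDGFRa-SCA1+ fraction, which held the endothelial markers, differed from the others in several members. Hspa12b, a distant HSP70 relative known from endothelial cells, stood there at 62.6, 56.05 and 39.4, against 2.98, 1.66 and 2.58 in DC sorted, 0.574, 2.88 and 0.324 in PDGFRa+SCA1+ and 16.1, 5.74 and 5.51 in PDGFRa+SCA1- (log2 difference 4.72 ± 0.58 from PDGFRa+SCA1+, adjusted p = 0.000122). Hspb9, a small heat shock protein known from testis, stood at 17.9, 25.1 and 9.87 there and at no more than 1.52 in the other 9 samples (adjusted p = 0.000741 against DC sorted). Dnajb5 stood at 15.9, 19.2 and 23.2 in this fraction and at 0.488, 5.45 and 6.28 in PDGFRa+SCA1+ (adjusted p = 0.0245, 0.0707 with only the groups compared). Hspb8 was lowest there, at 104, 96.4 and 40.3 against 283, 203 and 218 in DC sorted (log2 difference -1.63 ± 0.33, adjusted p = 0.00299), and Hspb2 stood at 1.37, 0.204 and 0 against 12.2, 6.70 and 15.3 in PDGFRa+SCA1+ (adjusted p = 0.00875). Against PDGFRa+SCA1+, 8 members were higher and 2 lower, against 10.9% and 7.86% of all genes, with a median of 0.34 against 0.25. Under quantile normalization 5 were higher and 7 lower, and without PDGFRa+SCA1+ of mouse A the calls numbered 5.

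The PDGFRa+ fractions shared several differences from ductal cells. Hspa12a, the other distant HSP70 relative, was at 0.0297, 0 and 0 in DC sorted, the first of these resting on fewer than 3 reads. It was at 14.8, 21.2 and 27.02 in PDGFRa+SCA1-, 11.6, 13.6 and 8.12 in PDGFRa+SCA1+ and 5.11, 26.5 and 11.2 in PDGFRa-SCA1+, and passed in all 3 (adjusted p = 0.00012, 0.000666 and 0.000549). Dnajc3 was at 89.8, 144 and 111 in DC sorted and at 226, 291 and 181, 315, 183 and 205 and 273, 186 and 229 in the stromal fractions in the same order. The log2 differences were at most 1.01 and each passed. Dnajc22, the ductal transcript, was at 49.4, 49.4 and 78.9 in DC sorted, listed at 0 in all 3 PDGFRa+SCA1- samples, and at 0, 2.94 and 0 in PDGFRa+SCA1+. In PDGFRa-SCA1+ it was at 0.465, 19.9 and 0, the high value being that of mouse E. Ductal markers of mouse E summed to 3706 in this fraction, against 79.2 and 314 in mice A and F. The part of ductal cells in these values was not tested.

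Lower in stroma were Dnajc5, at 201, 213 and 206 in DC sorted against 46.6 to 127 in the 9 stromal samples, and Hspa4, at 191, 179 and 204 against 67.8 to 111. The call of Hspa4 in PDGFRa+SCA1+ (adjusted p = 0.0156) was lost with the reuse undone (0.0680) and under quantile normalization (0.0993). Dnajc7, which carries clients between HSP70 and HSP90, was at 54.7, 98.8 and 69.8 in DC sorted against 17.3, 27.99 and 26.5 in PDGFRa+SCA1- and 18.9, 24.2 and 32.7 in PDGFRa+SCA1+. Dnajc15 was at 178, 195 and 133 in DC sorted and at 13.1, 25.6 and 0 in PDGFRa+SCA1+ (log2 difference -4.54 ± 1.02, adjusted p = 0.00599), while its values in PDGFRa+SCA1-, 80.5, 132 and 38.3, did not pass. Dnajc2, a ribosome-associated co-chaperone, was at 34.4, 42.8 and 28.4 in DC sorted and at 4.63, 5.27 and 4.50 in PDGFRa+SCA1+. Dnajc11, of the mitochondrial membranes, was at 18.8, 18.6 and 16.1 and 3.73, 2.82 and 5.70. Both passed (adjusted p = 0.00337 and 0.00871).

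Hspb6 and Hspb7, which rose in cultured stroma, were highest among fresh fractions in PDGFRa+SCA1-. Hspb6 was at 31.8, 56.3 and 154 there against 7.09, 6.23 and 7.84 in DC sorted (log2 difference 3.05 ± 0.57, adjusted p = 0.00163) and 7.98, 17.2 and 5.87 in PDGFRa+SCA1+. Hspb7 was at 2.27, 63.8 and 36.01 there and 0.591, 6.05 and 6.08 in PDGFRa+SCA1+, so that 1 of 3 mice did not show the high level. Between the PDGFRa+ fractions 0 of 63 members passed by limma, with 16 at an unadjusted p under 0.05, against 0.435% of all genes higher and 0.153% lower in PDGFRa+SCA1+. The median was -0.12 against 0.15 over all genes. Hspb6 came nearest (log2 difference -2.67 ± 0.57, adjusted p = 0.0652, 0.0427 with the reuse undone). Without PDGFRa+SCA1- of mouse A 1 member passed and without that of mouse F 2 did.

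Hspa5 did not vary among the fresh fractions beyond its spread. It lay between 1873 and 2537 in all 12 samples, and its comparisons with DC sorted gave log2 differences of -0.15 ± 0.15, 0.11 ± 0.15 and 0.05 ± 0.15. It was 1 of the 7 members above 100 in every sample of this experiment. Hspa9 was lower in PDGFRa+SCA1- (189.8, 345 and 251) and PDGFRa-SCA1+ (171, 232 and 252) than in DC sorted (443, 601 and 605), and Dnajc1 was lower in all 3 stromal fractions, its call in PDGFRa-SCA1+ being lost with the mouse as a block (adjusted p = 0.0809) and with the reuse undone (0.0598), and that in PDGFRa+SCA1+ under quantile normalization (0.125).

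**Figure D5:**
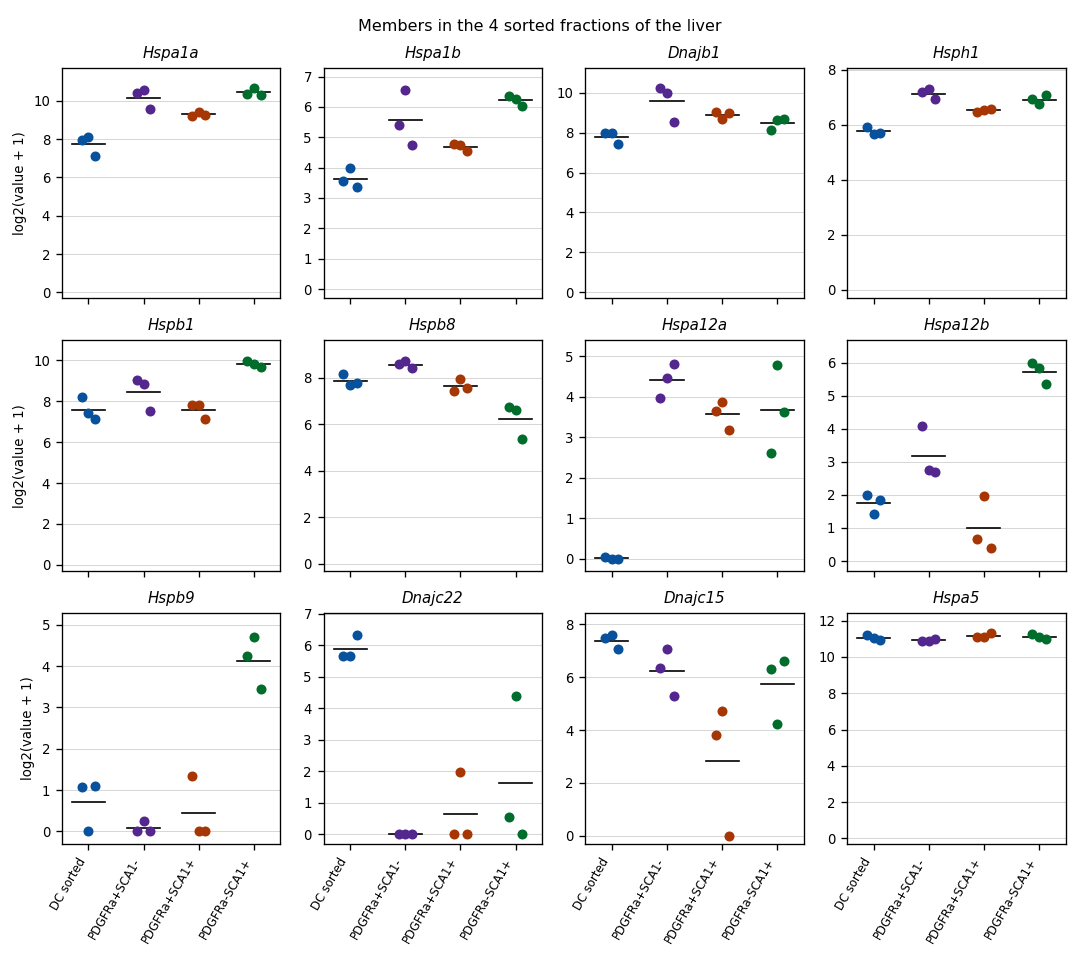
Level of 12 members as log2(deposited value + 1) in the 4 fresh fractions of mice A, E and F, with 1 point per sample in that order within each fraction, a bar at the mean, and a separate vertical scale per gene. Hspa1a, Hspa1b and Hsph1 are lowest in DC sorted, Hspa12b and Hspb9 stand out in PDGFRa-SCA1+, Dnajc22 in DC sorted, and Hspa5 is level across fractions.

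Other genes of the same pathway were read from fixed lists. Their counts stand beside shares of all genes called higher and lower of 27.4% and 17.5% in stroma alone, 26% and 17.3% in co-cultured stroma, 27.1% and 17.2% in EM organoids and 23.2% and 19.1% in co-cultured organoids, and with so few genes a list nothing particular is read from them. In stroma Hsp90aa1, the inducible HSP90, fell from 197 and 199 TPM to between 31.7 and 41.1 TPM in culture (log2 differences -2.60 ± 0.11 and -2.25 ± 0.11), and in ductal cells from 182 and 174 TPM to between 63.2 and 69.3 TPM. Bag3, the HSP70 nucleotide exchange factor that pairs with HSPB8, fell in stroma from 1119 and 1194 TPM to between 186 and 257 TPM, and in ductal cells stood at 267 and 287 TPM fresh, 163 and 170.5 TPM in EM and 231 and 253 TPM in co-culture. Of 4 HSP90 chaperones 1 was higher and 2 were lower in both cultured stromal groups, of 4 heat shock factors tested 2 were higher and 2 lower alone and 2 and 1 in co-culture, and of 11 nucleotide exchange factors 4 were higher and 1 lower in both. Of 9 HSP90 and HSP70 co-chaperones 3 were higher and 1 lower in both stromal groups. In EM organoids the same lists gave 2 and 2, 1 and 0, 3 and 3, and 4 and 1, and in co-cultured organoids 1 and 2, 1 and 1, 2 and 2, and 5 and 1. The 8 subunits of the cytosolic chaperonin gave 5 higher and 0 lower in stroma alone, 6 and 0 in co-cultured stroma, 3 and 3 in EM organoids and 1 and 2 in co-cultured organoids.

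Of 12 endoplasmic reticulum stress response genes 6 were higher and 3 lower in EM organoids, 5 and 3 in co-cultured organoids, 5 and 3 in stroma alone and 5 and 2 in co-cultured stroma. Herpud1, of endoplasmic reticulum degradation, fell with Hspa5 in ductal cells, from 1001 and 1061 TPM to 276 and 251 TPM in EM and 447 and 505 TPM in co-culture, whereas Pdia4, a disulfide isomerase, rose from 190.01 and 231 TPM to 458 and 444 and 324 and 369.7 TPM. In the fresh fractions 6, 6 and 5 of the 8 chaperonin subunits were lower in PDGFRa+SCA1+, PDGFRa+SCA1- and PDGFRa-SCA1+ than in DC sorted and 0 were higher. Over all genes 14%, 18.9% and 11.3% were lower. The other lists there had 0 to 1 member higher and 0 to 5 lower of 4 to 12.

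The members not tested were Dnajb8, Dnajc5b, Dnajc5g, Hspa1l, Hspb3 and Hspb9 in the transwell experiment and Dnajb7, Dnajb8, Dnajc5b, Dnajc5g, Dnajc6 and Hspb3 in the homeostasis experiment. Dnajb8, Dnajc5g and Hspb3 were listed at 0 in every transwell sample, and Dnajc5g and Hspb3 in every homeostasis sample. The highest value among the others was 3.41 TPM in the first experiment and 4.75 in the second. The group with the highest mean was counted among members with a group mean of at least 1. In the transwell experiment it was SCA1+Msc day 0 for 18, EM organoid for 13, DC day 0 for 12 and SCA1+Msc alone for 10. It was Co-cultured organoid for 6 and SCA1+Msc co-cultured for 5. In the homeostasis experiment it was DC sorted for 22, PDGFRa-SCA1+ for 20, PDGFRa+SCA1- for 17 and PDGFRa+SCA1+ for 4. The same count over all genes is not given, so nothing particular is read from these.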

How the data were processed

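Gene expression was measured by Smart-seq2 in 2 experiments of 12 samples each. Per the labels and the study's methods, single reads were aligned with STAR 2.5.0a to GRCm38, low-quality alignments were removed with SAMtools, and reads were counted per gene with featureCounts 1.6.0. The authors deposited RPKM (reads per kilobase of gene, scaled to depth) for the transwell experiment, which were scaled here to TPM by each column's sum. The deposited values of the homeostasis experiment are named TPM but were RPKM divided by column totals reused down the rows (sums of 847270 to 1173511), and were used as deposited. The 4 population-mean columns of that table were not used. Depth was recovered from the step that 1 read makes in low values, with GENCODE M21 exon lengths (93.0% and 92.8% of low values were whole to within 0.02 reads), and limits the precision by counting error only.

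Genes that reached 1 in 2 or more (transwell) or 3 or more (homeostasis) samples were tested with limma 3.58.1 in R 4.3.3 on log2(value + 1), which understates changes of low genes, over all 12 samples of an experiment, two-sided, with Benjamini-Hochberg adjustment over all genes and a threshold of 0.05. The test was checked on simulated data. Errors after ± are standard errors of the log2 difference. Python 3.11.15 with pandas 2.3.3 was used for the tables. Fractions with the same mouse letter came from the same animal, and their deviations correlated by 0.010 to 0.097. Promoters were taken from RefSeq.

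Named genes were 19 fixed members and, per comparison, up to 6 rises and 6 falls of largest size among members past the threshold whose samples did not overlap. The members and gene lists were chosen with earlier results of these data known. Alternatives were a pseudocount of 0.1, no filter, quantile normalization, a replicate block, only the groups compared, RPKM as deposited, the reuse of totals undone, and leaving out each sample.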

Additional observations from a re-analysis of the deposited data

Results flagged for a closer look

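The change from fresh to co-cultured cells differed between ductal and stromal cells, by limma's test of the difference itself, in 18 of the named members. Each value is the ductal minus the stromal log2 change with its standard error.

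Among heat-inducible members the stromal fall was the larger for Hspa1a (4.14 ± 0.23), Hspa1b (4.67 ± 0.48), Hsph1 (2.96 ± 0.29), Dnajb1 (2.28 ± 0.25) and Dnaja1 (0.92 ± 0.22). Hspa8 (1.82 ± 0.16) rose in ductal and fell in stromal cells. The ductal fall was the larger for Hspb1 (-0.85 ± 0.25).

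Among organelle chaperones, the stromal change was the lower one for Hspd1 (0.76 ± 0.20) and Hspe1 (0.93 ± 0.21), and the ductal change for Hspa9 (-0.60 ± 0.14), Hspa5 (-0.37 ± 0.11) and Dnajc1 (-1.90 ± 0.30). Hspb8 (-3.73 ± 0.41) fell in ductal cells, and Hspa4 (-1.07 ± 0.17) fell in ductal and rose in stromal cells. The value was 1.20 ± 0.33 for Hspa2 and -0.75 ± 0.22 for Dnajc5. On the RPKM scale those of Hspa5 (limma adjusted p = 0.211), Dnajc5 (0.0647) and Hspb1 (0.0641) did not pass.

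The remaining pair rests on levels listed at 0 in one cell type, so that its size depends on the added 1: Dnajc22 (4.56 ± 0.41), at 0 in cultured stroma, and Hspb7 (-4.28 ± 0.41), at 0 in nearly all ductal samples. Groups held 2 or 3 samples, too few for a test of single samples that stand apart.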

How the results depend on the processing

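No called value changed direction. Of 3146 alternative values for 283 results on single members, 2853 kept their side of the threshold, 158 fell below it, 48 rose above it and 87 moved by more than the replicate spread without a call.

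With 1 sample left out, the members called numbered 24 to 28 in EM organoids and 24 to 27 in co-cultured organoids against fresh ductal cells, and 2 to 3 between the organoids. They numbered 29 to 40 in stroma alone and 28 to 35 in co-cultured stroma against fresh stroma, 0 to 0 between the cultured stromal groups, and 13 to 23 for the ductal minus stromal difference. In the fractions they numbered 9 to 11 for PDGFRa+SCA1+, 13 to 24 for PDGFRa+SCA1- and 13 to 15 for PDGFRa-SCA1+ against DC sorted, 0 to 2 between the PDGFRa+ fractions and 5 to 8 for PDGFRa-SCA1+ against PDGFRa+SCA1+. Where 1 sample of a pair was left out, the lone sample was assumed to vary like the other groups.

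Fitting only the groups compared gave 3 members between the organoids in place of 6. A pseudocount of 0.1 gave 1 member (Hspa1a, adjusted p = 0.0473 by limma) between the cultured stromal groups in place of 0. Undoing the reuse of totals gave 1 member (Hspb6) between the PDGFRa+ fractions in place of 0. The causes were not tested.

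With a replicate block the transwell counts, in the order above, were 34, 33, 4, 38, 34, 0 and 20, and the fraction counts were 13, 21, 15, 0 and 10. The transwell labels do not say whether samples of the same number came from the same animal (correlation of deviations 0.004 to 0.030). In the fractions, beside the calls named in the report, the block ended that of Dnajc17 in PDGFRa+SCA1- (limma adjusted p = 0.0678) and added Dnajb5 in PDGFRa-SCA1+ (0.0423) and Dnajc28 in PDGFRa+SCA1- (0.0483) against DC sorted, and changed no other call of a member. In the transwell experiment it ended 5 calls, among them Dnajc22 (0.0546) and Hspa1a (0.0601) between the organoids, and added 4, among them Dnaja3 in co-cultured stroma (0.0279). Changes of genes at a few reads, such as Hspa1b in cultured stroma, are limited by depth.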
